A study of Mus musculus with 6 samples.

Results

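A set of 10 noncoding RNA symbols was examined in total RNA from mouse haematopoietic cells, namely Rmrp, Rpph1, Terc, Rny1, Rny3, Rnu11, Rnu12, Malat1, Neat1 and CT010467.1. They were chosen by symbol and matched 12 of the 55487 gene entries, because Rmrp and Terc each had 2. The cells were bone marrow cells positive for Kit transduced with lentivirus for wild type MLLT3 (3 libraries, WT) or for a double mutant of it, K63E plus K67E (3 libraries, DM). Both groups were sorted and then cultured, 8 days in all, in methylcellulose. The medium held mFlt3L at 10 ng/mL, the growth factors mSCF, hEPO, hTPO and mGMCSF and the interleukins mIL-11, mIL-6 and mIL-3 at 20 ng/mL each, gentamycin, and 4-hydroxytamoxifen at 200 nM to delete endogenous Mllt3, a deletion that the WT controls share. The vector's promoter and the source of each culture are not given in the sources used here, and p-values therefore measure only the spread between these libraries. The title of the series describes the YEATS domain of MLLT3 as a reader of histone marks and of 7SK, itself an abundant noncoding RNA, and setting DM against WT addresses what the mutated residues do to expression.

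These RNAs work mostly as the core of a ribonucleoprotein and are not translated. Rmrp and Rpph1 are the RNA subunits of RNase MRP, which cuts precursors of ribosomal RNA, and of RNase P, which cuts precursors of transfer RNA and also the 3′ end of Malat1. Terc is the template of telomerase, Rny1 and Rny3 are Y RNAs bound by the Ro60 and La proteins, and Rnu11 and Rnu12 are the U11 and U12 RNAs of the minor spliceosome. Malat1 lies in nuclear speckles and Neat1 builds paraspeckles, both being long RNAs kept in the nucleus. CT010467.1 is annotated as ribosomal RNA. Most short RNAs of this kind have no poly(A) tail, so they can be read in libraries of total RNA but are largely missed by selection for poly(A).

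The sequences of the 2 minor spliceosome RNAs are shown because both were measured well above the floor of the table. Capitals mark the stretches searched for on the transcript strand, which do not overlap: AAGGGCT in Rnu11 (bases 4 to 10, next to the 5′ end that pairs with the 5′ splice site), GTAAGGAA in Rnu12 (bases 18 to 25, the part that pairs with the branch site) and AATTTTT in both, of the kind bound by Sm proteins. Rnu11 lies at chr4:132270080-132270213 on the minus strand and Rnu12 at chr15:83149644-83149794 on the plus strand.
Rnu11: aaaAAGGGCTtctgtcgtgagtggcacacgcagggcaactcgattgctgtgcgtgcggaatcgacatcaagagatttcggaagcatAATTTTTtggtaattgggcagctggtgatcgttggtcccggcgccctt
Rnu12: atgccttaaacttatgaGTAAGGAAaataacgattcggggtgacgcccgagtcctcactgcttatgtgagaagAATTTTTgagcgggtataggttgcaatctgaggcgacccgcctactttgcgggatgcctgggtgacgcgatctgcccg
Of 1190 annotated snRNA transcripts of 100 to 500 bases, AAGGGCT was in 6 (0.504%), GTAAGGAA in 9 (0.756%) and AATTTTT in 43 (3.61%). Coordinates and sequences were taken from GENCODE release M21 (GRCm38, the assembly also called mm10, which the submitters' processing notes name).

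The Y RNAs are shown as a pair, because they lie 6343 bases apart on opposite strands and both had low values. Capitals mark runs of at least 8 bases that the pair shares, which make up 28 bases of each. Rny1 is at chr6:47788069-47788180 on the minus strand and Rny3 at chr6:47781624-47781725 on the plus strand, and their 112 and 102 bases align with 72.3% identity.
Rny1: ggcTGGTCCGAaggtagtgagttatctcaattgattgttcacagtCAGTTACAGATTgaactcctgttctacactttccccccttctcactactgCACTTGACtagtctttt
Rny3: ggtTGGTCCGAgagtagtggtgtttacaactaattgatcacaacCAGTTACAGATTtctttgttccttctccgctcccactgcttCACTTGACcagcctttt

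Rmrp, Rpph1 and Terc are shown because their values were close to the lowest of the table. In Rmrp (chr4:43492783-43493063, minus strand, 281 bases) capitals mark the 5 bases at each end that lie outside the second Rmrp entry, which covers the other 271 bases on the same strand. In Rpph1 (chr14:50807449-50807767, minus strand, 319 bases, of which bases 1 to 300 are printed) capitals mark the 233 bases that also belong to an exon of the protein-coding gene Ccnb1ip1 on the same strand. Terc (chr3:96414437-96414859, minus strand, 423 bases) is shown from base 1 to 90, which is chr3:96414770-96414859, with CTAACCC in capitals at bases 29 to 35, the template copied into telomere repeats.
Rmrp: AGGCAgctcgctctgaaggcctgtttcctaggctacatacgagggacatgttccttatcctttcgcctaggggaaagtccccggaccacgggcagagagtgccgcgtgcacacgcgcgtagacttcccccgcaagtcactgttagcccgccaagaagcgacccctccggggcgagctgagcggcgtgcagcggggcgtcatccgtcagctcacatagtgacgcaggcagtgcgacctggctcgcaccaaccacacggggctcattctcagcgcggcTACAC
Rpph1: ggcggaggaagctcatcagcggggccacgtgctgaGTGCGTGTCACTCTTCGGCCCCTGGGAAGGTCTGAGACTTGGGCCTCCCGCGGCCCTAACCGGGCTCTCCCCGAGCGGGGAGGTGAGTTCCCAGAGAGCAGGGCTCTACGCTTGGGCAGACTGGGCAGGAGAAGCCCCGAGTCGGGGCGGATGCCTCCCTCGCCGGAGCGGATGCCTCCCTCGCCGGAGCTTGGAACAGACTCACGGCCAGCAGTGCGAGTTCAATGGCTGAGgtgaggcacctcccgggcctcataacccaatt
Terc: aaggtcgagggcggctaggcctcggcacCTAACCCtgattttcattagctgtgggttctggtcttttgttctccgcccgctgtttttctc
CTAACCC was in 44 (1.18%) of 3714 transcripts of 100 to 500 bases annotated as misc_RNA, snRNA or lincRNA. A match to any of these letters is a description of the sequence and not a measured site.

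Values in the deposited table are regularized logs (rlog, in log2 units), normalized for library size and pulled toward each gene's mean, most strongly for low genes, so differences of low genes are understated. The table ran from -1.97 to 21.88, and its depth in reads is unknown. Library medians over the 18766 genes tested, those whose mean reached 3, lay between 8.03 and 8.11. Mllt3, targeted for deletion and also supplied by the vector, read 12.87, 12.6 and 12.44 in WT and 12.44, 12.03 and 11.99 in DM. The groups overlapped at 1 pair of libraries, and Mllt3 was lower in DM (difference -0.48, SE 0.137, limma adjusted p 0.0448). The level of Mllt3 RNA may thus have differed between the groups as well as its sequence. How this call depended on the processing was not examined, and reads of the vector were not told apart from endogenous reads. Kit, which marks the sorted cells, read 14.29 to 14.58 in WT and 14.3 to 14.9 in DM.

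Going by the deposited values, the label of abundant RNAs held for only part of the set. CT010467.1 was the highest of all genes, Malat1 was number 10 and Neat1 number 160 of the 18766 tested genes by mean. Rnu11 was number 9006, Rnu12 number 11060 and Rny1 number 17811. Rny3 (mean 2.25), Terc (-0.74), Rpph1 (-1.49) and the longer Rmrp entry (-1.97) fell below the minimum of 3 and were not tested. The second entries of Rmrp and Terc were listed at exactly 0 in all 6 libraries. Rmrp and Rpph1 overlap other entries on the same strand, and whether their low values mean little RNA was not tested.

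**Figure D1:**
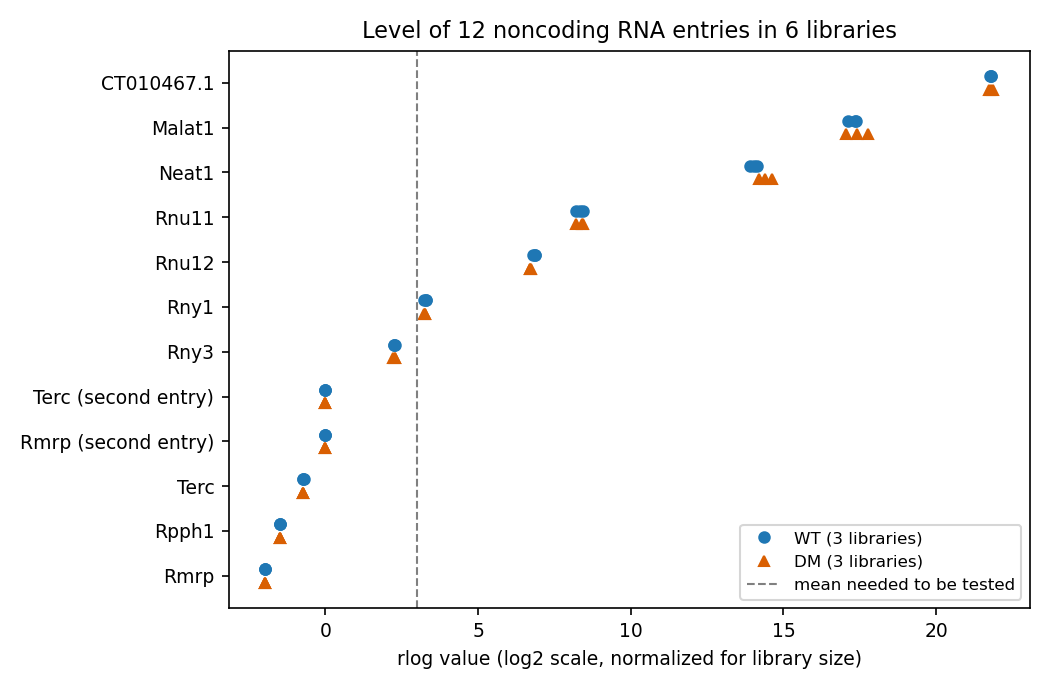
Level of the 12 entries, with the rlog value (log2) on the horizontal axis, 1 entry per line, circles for the 3 WT and triangles for the 3 DM libraries, and a dashed line at the mean of 3 needed for testing. CT010467.1, Malat1 and Neat1 sit far to the right, Rnu11 and Rnu12 in the middle, and 6 entries left of the line.

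Longer RNAs yield more fragments per molecule, so levels were also compared per kilobase of annotated exon, on the log2 scale. The order was CT010467.1 (mean 20.5), Malat1 (14.54), Rnu11 (11.24), Neat1 (9.85), Rnu12 (9.5), Rny1 (6.42) and Rny3 (5.55). On this scale the short Rnu11 passed Neat1, whose annotated exons span 20771 bases against 134 for Rnu11. The scale allows for length only, and how well RNAs as short as Rnu11 were recovered in these libraries was not tested. Shorter Neat1 transcripts of 3004, 1030 and 711 bases are annotated too, and which of them were present was not tested. The place of Neat1 in this order therefore holds only for the length of 20771 bases. Neat1 and Rnu12 were not separated, since the 6 libraries ran from 9.52 to 10.27 for Neat1 and from 9.43 to 9.6 for Rnu12. The other neighbours among these 7 RNAs did not overlap in any library. No order was read for Terc, Rpph1 and Rmrp, because at the floor of the table this scale mostly reflects the length: the shorter Rmrp entry, at 0 in every library, came out at 1.88.

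No member passed the test between DM and WT. By limma, with p-values adjusted after Benjamini-Hochberg, 0 of 6 tested members were called at 0.05, against 13.9% of all genes tested (9.2% higher in DM and 4.71% lower). At an unadjusted p under 0.05 there was 1 (Neat1), against 28.9% of all genes. Non-overlapping groups were seen for 2 of 6, Neat1 (higher in DM) and Rnu12 (lower in DM), against 35.8% of all genes tested. The median difference was 0.01 over the 6 members and also 0.01 over all genes tested. Among all genes called, 66.1% were higher in DM, a share that became 51.3% after quantile normalization.

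**Figure D2:**
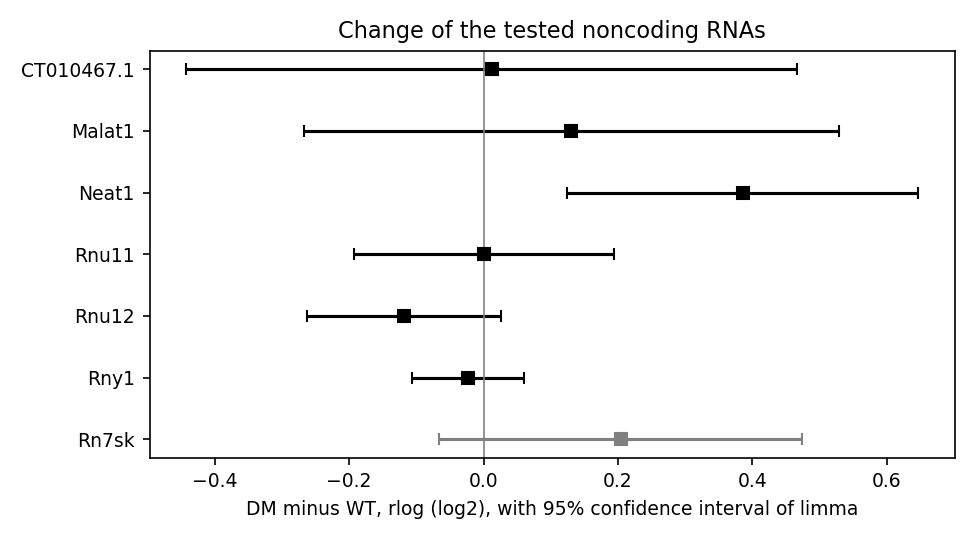
Difference DM minus WT in rlog units (log2, horizontal axis) for the 6 tested members and 7SK (Rn7sk, grey), with squares for the estimate and bars for limma's 95% confidence interval before adjustment. Neat1 alone has an interval above 0, from 0.12 to 0.65, and its adjusted p is 0.0552.

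Rmrp, the RNA of RNase MRP, had an rlog value of -1.97 in all 6 libraries, with a range of 0.00325, and 6.12% of the 47934 genes not at 0 everywhere had a mean at or below its own. Rpph1, the RNA of RNase P, lay between -1.49 and -1.48, with a range of 0.00741 and 7.21% of genes at or below it. At such values the transform leaves almost no difference between libraries, so nothing can be read from them about DM and WT. The coding gene that shares 233 bases with Rpph1, Ccnb1ip1, was itself low, with a mean of 0.82. Parp2, a DNA repair gene on the other strand whose start lies 73 bases from Rpph1, read 9.85 ± 0.112 (SD, n = 3) in WT and 9.83 ± 0.0494 in DM. Of the 3 annotated copies of Rpph1 with at least 80% identity, Rprl1 was listed at 0 in all libraries, and Rprl2 had a mean of 0.16 and Rprl3 of -0.34.

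The genes of the proteins that these 2 RNAs share were readily measured. Protein was not measured, and proteins named here and below stand for the RNA of their genes. All 11 subunits of RNase P and RNase MRP in the list were tested. By limma with Benjamini-Hochberg adjustment 0 were called, against 13.9% of all genes tested. The median difference was 0.06, with 7 of 11 higher in DM. All 11 had means of at least 5, and over all such genes the median was also 0.06. Neither this list nor those below were tested as a set against all genes. Pop1, the largest protein subunit of both enzymes, read 9.29 ± 0.0795 (SD, n = 3) in WT cells and 9.25 ± 0.111 in DM cells, a difference of -0.04 (SE 0.0786, limma adjusted p 0.74). Next to Rmrp on the chromosome, Ccdc107, whose exon covers part of Rmrp on the opposite strand, had a mean of 8.67 in WT and 8.94 in DM and did not pass the threshold (limma adjusted p 0.0506). Arhgef39, 3078 bases away and on the strand of Rmrp, fell in DM (difference -0.43, SE 0.0794, limma adjusted p 0.00907).

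Entries that lie wholly inside an exon of another gene on the same strand, as the shorter Rmrp entry does, were at 0 almost throughout the table. Among snRNA, misc_RNA and ribozyme entries, 69 of 69 such entries were at 0 in all 6 libraries, against 677 of 1853 (36.5%) that lie inside no other exon. Of 45 entries covered on the opposite strand only, 9 (20%) were at 0. Among snoRNA entries 156 of 157 inside a same-strand exon were at 0. The 69 entries include Gm27694 within Malat1 and Gm27533, Gm27505 and Gm28006 within Neat1. For Rmrp, Rnu3a and Rnu3b1 to Rnu3b4 the symbol had 2 overlapping entries, with means of at most 1.14. How the authors assigned reads that overlap 2 entries is not given in the sources used here, and the part of overlap in the low values of Rmrp and Rpph1 was not tested.

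**Figure D3:**
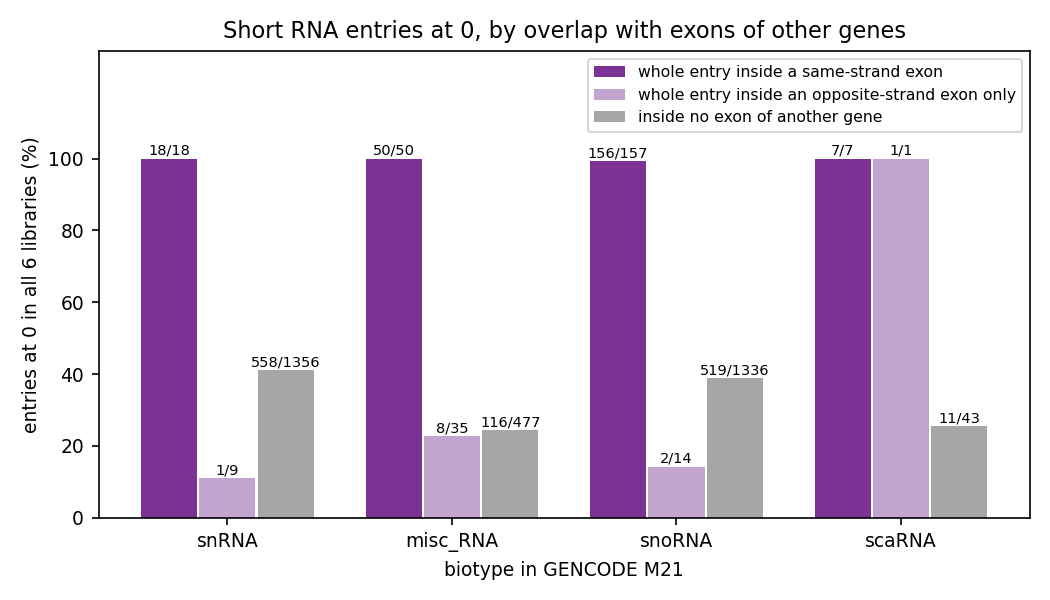
Percent of short RNA entries listed at 0 in all 6 libraries (vertical axis) for 4 GENCODE biotypes, split by whether the whole entry lies inside an exon of another gene on the same strand, on the opposite strand only, or in no such exon. Numbers above the bars are entries at 0 of all entries in that class, and the same-strand bars stand at 99.4% or 100%.

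Terc, the telomerase template, read -0.71 in WT replicate 3 and -0.75 in each of the other 5 libraries. Its second entry was at 0 and was not found in GENCODE M21, so its position is not given. Tert, the reverse transcriptase that copies this template, was low but measured, with 4.6, 4.46 and 4.84 in WT and 4.34, 4.45 and 4.43 in DM. The groups did not overlap for Tert, yet its difference of -0.23 (SE 0.088, limma adjusted p 0.124) did not pass. Dkc1, the pseudouridine synthase that binds and stabilises Terc, read 11.24, 11.06 and 10.84 in WT and 10.87, 10.74 and 10.63 in DM, with groups that overlapped at 1 pair of libraries. Its difference was -0.30 (SE 0.105, limma adjusted p 0.0892), and it passed the threshold, among other alternatives, after quantile normalization (-0.4, adjusted p 0.0226), after centring on protein-coding genes (-0.36, 0.0287) and without WT replicate 3 (-0.4, 0.0206). Tert passed without WT replicate 2 (-0.31, adjusted p 0.0312). Over the 18 telomerase and telomere proteins tested, 0 were called, against 13.9% of all genes tested. Of these 18 proteins 5 had a higher mean in DM, and the median difference was -0.06.

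Rny1 read 3.29, 3.29 and 3.24 in WT and 3.24, 3.25 and 3.26 in DM. The groups overlapped, and the difference was -0.02 (SE 0.0373, 95% interval -0.11 to 0.06, limma adjusted p 0.71). Rny3 read 2.29, 2.24 and 2.23 in WT and 2.28, 2.21 and 2.27 in DM, again with overlapping groups and without a test. These low values rest on strongly shrunken data, and 13 other annotated transcripts match Rny1 with at least 80% identity, so the reads of Rny1 are uncertain. Of these only Fpgt, a coding gene holding such a stretch, had a mean of 3 or more, while no annotated transcript matched Rny3 that closely.

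Of the proteins that bind Y RNAs, none of the 3 tested was called, against 13.9% of all genes tested. Their median difference was 0.06, as it was over all genes with a mean of at least 5. Ssb, the La protein that holds the 3′ end of new Pol III transcripts, read 12.42 ± 0.0513 (SD, n = 3) in WT cells and 12.45 ± 0.0597 in DM cells, a difference of 0.03 (SE 0.0695, limma adjusted p 0.787). Ro60, singled out after its values were seen, differed by 0.26 (SE 0.0764, limma adjusted p 0.0531) and did not pass.

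Rnu11, the RNA that recognises the 5′ splice site of minor introns, read 8.34, 8.45 and 8.22 in WT and 8.2, 8.39 and 8.42 in DM. The groups overlapped, averaging 8.34 ± 0.115 (SD, n = 3) for WT and 8.34 ± 0.117 for DM. The difference was below 0.01 (0.00028, SE 0.0867, limma adjusted p 0.999), with a 95% interval from -0.19 to 0.19. An exon of Gm28872 covers all of Rnu11 on the opposite strand, and this entry had a mean of 1.67. Of the 3 annotated transcripts that match Rnu11 with at least 90% identity, 1 is Gm28872, at the same place and not another copy. All 3 had means below 3.

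Rnu12, which pairs with the branch site, read 6.85, 6.87 and 6.79 in WT and 6.7, 6.71 and 6.74 in DM. All 3 DM libraries were lower than all 3 WT libraries. The difference was small, -0.12 (SE 0.0646, 95% interval -0.26 to 0.03), and did not pass the threshold (limma adjusted p 0.25). It kept its sign in all 15 alternatives, from -0.18 to -0.09, with adjusted p from 0.111 to 0.435. The within-group SD of Rnu12, 0.0329, was smaller than that of all but 2.61% of the 4176 tested genes with a mean from 6 to 9, and limma raises such a small SD toward the general level. Another 3 annotated transcripts match Rnu12 with at least 90% identity, and their means were at most 1.37. Both genes next to it are on the other strand: Poldip3, 259 bases away, differed by 0.05 (limma adjusted p 0.644), whereas Cyb5r3, 3699 bases away, rose by 0.46 (SE 0.0971, limma adjusted p 0.0139).

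Within each library the gap between Rnu11 and Rnu12 was 1.5, 1.58 and 1.43 in WT and 1.5, 1.68 and 1.68 in DM. These gaps overlapped, and their difference of 0.12 had an exact two-sided permutation p of 0.2 (n = 3 against 3, where the smallest possible p is 0.1). Among the 13 minor spliceosome proteins tested 0 were called, against 13.9% of all genes tested. Their median difference was 0.08 and 10 were higher in DM. All 13 had means of at least 5, and over all such genes the median was 0.06. Rnpc3, which bridges U11 and U12, read 8.57 ± 0.0856 (SD, n = 3) in WT cells and 8.61 ± 0.057 in DM cells, a difference of 0.04 (SE 0.0723, limma adjusted p 0.773).

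Malat1 (chr19:5795690-5802672, minus strand), the long RNA of nuclear speckles, read 17.36, 17.34 and 17.12 in WT and 17.4, 17.04 and 17.78 in DM. The DM libraries held both the lowest and the highest value, and the groups overlapped. Malat1 averaged 17.28 ± 0.136 (SD, n = 3) for WT and 17.41 ± 0.37 for DM, a difference of 0.13 (SE 0.178, 95% interval -0.27 to 0.53, limma adjusted p 0.654). This difference changed sign after quantile normalization (-0.2, adjusted p 0.34) and when DM replicate 3 was left out (-0.06, adjusted p 0.849), and it was 0.31 without DM replicate 2 (adjusted p 0.277). Malat1 was among the more variable of highly expressed genes: its pooled SD within groups, 0.279, was larger than that of 96.6% of the 1585 tested genes with a mean of 12 or more, whose median was 0.0953. Taken back to the linear scale, Malat1 made up 0.367% of the sum of all values in DM replicate 2 and 0.636% in DM replicate 3.

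Neat1 (chr19:5824708-5845478, minus strand), the scaffold RNA of paraspeckles, had the lowest adjusted p of the 6 tested members. It read 14.04, 14.15 and 13.89 in WT and 14.39, 14.22 and 14.64 in DM. Every DM library was above every WT library. The mean went from 14.03 ± 0.128 (SD, n = 3) to 14.41 ± 0.215, a difference of 0.39 (SE 0.117, 95% interval 0.12 to 0.65), with an unadjusted limma p of 0.00817 and an adjusted p of 0.0552. The difference was above 0 in all 15 alternatives, from 0.25 after quantile normalization (adjusted p 0.162) to 0.49 without DM replicate 2. It passed the threshold in 4 of them, among others with only genes of a mean of at least 5 (adjusted p 0.0363), without WT replicate 2 (0.45, 0.039) and without DM replicate 2 (0.49, 0.0467). It was 0.27 without DM replicate 3 (adjusted p 0.187).

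Neat1 and Malat1 are neighbours on chromosome 19 and share the strand. A gap between 2 RNAs within a library is the same after any shift applied to all values of that library, and the gaps given here were chosen after the values were seen. Neat1 minus Malat1 was -3.32, -3.2 and -3.22 in WT and -3.01, -2.82 and -3.14 in DM. All 3 DM gaps were smaller than all 3 WT gaps, and the mean went from -3.25 ± 0.0648 (SD, n = 3) to -2.99 ± 0.158, a shift of 0.25 (exact two-sided permutation p 0.1, the smallest that 3 against 3 allows). Quantile normalization is not such a shift, and after it Neat1 differed by 0.25 and Malat1 by -0.2, so that their gap shifted more than as deposited. Against 7SK (Rn7sk) the gap of Neat1 likewise did not overlap (-2.98 to -2.9 in WT and -2.9 to -2.67 in DM, a shift of 0.18, exact permutation p 0.1, with the nearest libraries almost equal), while that of Malat1 did (a shift of -0.07, exact permutation p 0.9). Rn7sk itself differed by 0.20 (SE 0.121, limma adjusted p 0.289). The coding gene Frmd8, 4223 bases from Neat1, differed by 0.05 and was not called (limma adjusted p 0.637). Gm37376, on the strand opposite Malat1 and wholly inside it, differed by 0.24 (limma adjusted p 0.0928).

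**Figure D4:**
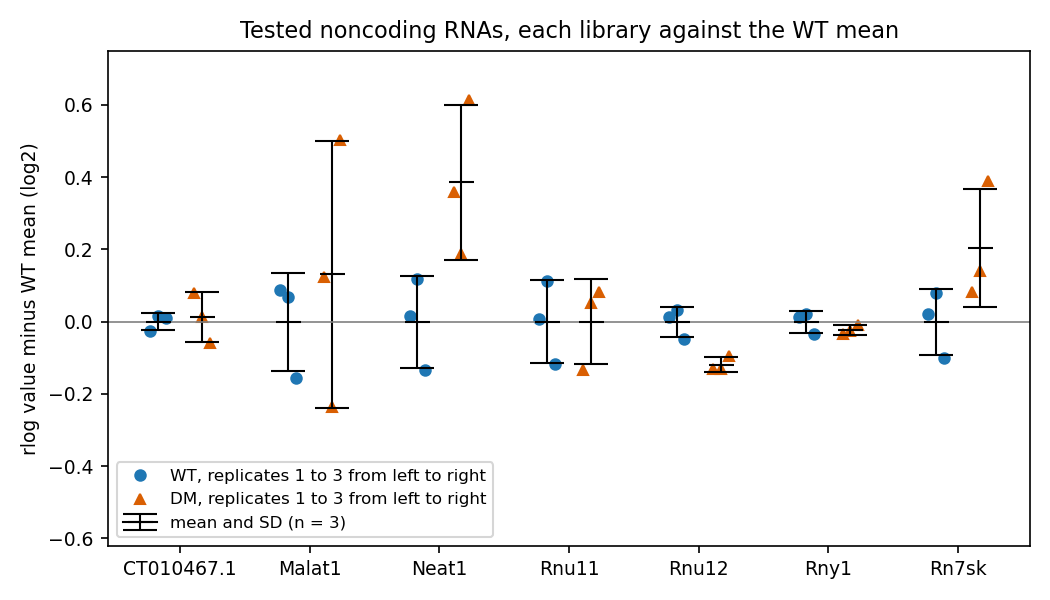
rlog value minus the WT mean (log2, vertical axis) in each library for the 6 tested members and Rn7sk, circles for WT and triangles for DM with replicates 1 to 3 from left to right, and bars for the mean and SD (n = 3). The 3 DM points of Neat1 lie above its WT points and those of Rnu12 below, while the DM points of Malat1 stand for values from 17.04 to 17.78.

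Libraries of the same group differed in long nuclear RNAs, in DM and in WT. DM replicates 2 and 3 were compared because they lay furthest apart for Malat1 and Neat1, so their gap is not an independent result. Malat1 was 0.74 and Neat1 0.43 higher in DM replicate 3 than in DM replicate 2, and Rn7sk 0.25. Of the other long nuclear RNAs in the list, 9 of 10 were also higher there, with a median of 0.24, against 45.6% of all genes tested with a median of -0.01. Rnu11, Rnu12 and Rny1 differed by at most 0.04 between these libraries. In WT, 8 of these 10 were lower in replicate 3 than in replicate 2, with a median of -0.22. Over all 18766 genes tested 11545 were lower there, with a median of -0.05. Low values in WT replicate 3 were not particular to long nuclear RNAs. Its mean deviation from the 6 libraries was -0.09 for paraspeckle proteins, -0.11 for polymerase III factors and -0.06 for these 10 RNAs. Replicate 3 was also the lowest WT library for Malat1, Neat1, Rnu11, Rnu12 and Rny1.

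The genes of proteins of the bodies that Malat1 and Neat1 occupy were not called. None of the 11 paraspeckle proteins was called, against 13.9% of all genes tested. Their median difference was -0.04, with 3 of 11 higher in DM. Nono read 12.85 ± 0.0916 (SD, n = 3) in WT cells and 12.83 ± 0.0484 in DM cells, a difference of -0.02 (SE 0.0751, limma adjusted p 0.861), and Sfpq, its partner in binding Neat1, differed by -0.10 (SE 0.0781, limma adjusted p 0.43), or by -0.23 after quantile normalization (adjusted p 0.0237). None of the 12 nuclear speckle proteins was called either, with a median of -0.03. All genes of both protein lists had means of at least 5, and over all such genes the median was 0.06. Of the 10 other long nuclear RNAs, 1 was called, Meg3, an imprinted RNA, with 4.51 ± 0.189 (SD, n = 3) in WT cells and 4.22 ± 0.0102 in DM cells, a difference of -0.29 (SE 0.0835, limma adjusted p 0.046). Meg3 lost its call in 9 of 14 alternatives.

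Markers of cell types moved between the groups, and in bulk RNA fewer cells of a type cannot be told apart from less RNA per cell. Rose and fell here mean a limma adjusted p under 0.05, met by 13.9% of all genes tested (9.2% higher in DM and 4.71% lower). Of 16 neutrophil markers 13 fell, and the summed level of the list was 18.63 to 19.07 in WT and 17.31 to 18.14 in DM (log2 of summed linear values). Of 13 tested monocyte and macrophage markers 8 rose and 2 fell, with a summed level of 18.28 to 18.97 in WT and 19.26 to 19.63 in DM. Of 12 proliferation genes 10 fell, with a summed level of 16.12 to 16.28 in WT and 15.72 to 15.9 in DM. Of 8 eosinophil markers 3 fell (15.23 to 15.35 in WT and 14.15 to 14.55 in DM), of 9 tested megakaryocyte markers 2 rose (14.23 to 14.49 and 14.51 to 14.89), and of 6 tested lymphoid markers 1 rose and 3 fell (11.63 to 12.23 and 12.37 to 12.55). The lymphoid sum was mostly Il7r, with a mean of 11.56 in WT and 12.35 in DM, the only 1 of these 6 with a higher mean in DM. Summed levels overlapped between the groups for the mast cell and basophil list (1 rose and 1 fell of 12), the progenitor list (1 rose and 2 fell of 8) and the erythroid list (0 of 10 called by limma). No marker of these 9 lists was at 0 in all libraries, and their part in the values of Neat1 and Rnu12 was not tested.

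CT010467.1 lies at chr17:39846353-39848827 on the minus strand in GENCODE M21, where its identifier has an earlier version than in the deposited table. Exons of Gm42418 on the opposite strand and AY036118 on the same strand overlap it, neither analysed here, so its reads may be shared. RefSeq on GRCm38 lists Rn18s-rs5, a sequence related to the small-subunit ribosomal RNA, as a pseudogene at the same place. Per the labels' protocols the library kit included AnyDeplete, a step that removes abundant transcripts, and which transcripts it targeted is not given in the sources used here. It read 21.77, 21.81 and 21.81 in WT and 21.88, 21.81 and 21.74 in DM, with DM libraries on both sides of the WT range. The difference was 0.01 (SE 0.203, 95% interval -0.44 to 0.47, limma adjusted p 0.974). This SE of 0.203 came with the mean-variance trend of the fit, and it was 0.0574 without the trend. The pooled SD of 0.0515 was among the smallest of highly expressed genes, with 6.18% of them below it. The interval was therefore wider than the spread between these libraries alone would give. Its share of the linear sum was 10.6% to 11.6% in WT and 9.89% to 10.6% in DM. The ribosomal RNAs of mitochondria, mt-Rnr1 and mt-Rnr2, differed by 0.05 and 0.16 and were not called (limma adjusted p 0.798 and 0.359).

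Rmrp, Rpph1 and the Y RNAs are made by RNA polymerase III from promoters that lie before the gene and bind the SNAPc complex, which also serves the U11 and U12 genes with RNA polymerase II. Of 22 polymerase III subunits and factors 1 was called, Polr3d, a core subunit with 9.12 ± 0.0402 (SD, n = 3) in WT cells and 9.39 ± 0.0494 in DM cells, a difference of 0.27 (SE 0.0648, limma adjusted p 0.0215), and the list had a median of 0.09 with 18 of 22 higher in DM. The median over all genes with a mean of at least 5, which all genes of this list exceed, was 0.06. Over all genes tested 13.9% were called. Polr3d lost its call without the filter on the mean (adjusted p 0.0648) and without WT replicate 1 (0.0995), DM replicate 1 (0.0758) or DM replicate 2 (0.0855). Of 19 SNAPc and Integrator subunits 1 was called, Snapc5, the smallest SNAPc subunit with 8.95 ± 0.0711 (SD, n = 3) in WT cells and 9.29 ± 0.123 in DM cells, a difference of 0.34 (SE 0.08, limma adjusted p 0.0216), with a median of 0.02. Snapc5 lost its call without WT replicate 1 (0.31, adjusted p 0.0923) and without DM replicate 2 (0.27, adjusted p 0.0873).

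Other structural RNAs gave 1 call among 9 tested entries, against 13.9% of all genes tested, with a median of -0.04. Vaultrc5, the RNA of the vault particle and also a polymerase III transcript, read 9, 9.1 and 8.97 in WT and 9.44, 9.9 and 9.45 in DM. All 3 DM libraries were above all WT libraries, and the difference was 0.57 (SE 0.118, limma adjusted p 0.0124). Vaultrc5 kept its call in all 15 alternatives, from 0.42 without DM replicate 2 to 0.65 without DM replicate 1. The other 8 tested entries, Rn7sk among them, differed by -0.07 to 0.2. Of the 28 entries with symbols of this list, 13 were at 0 in all 6 libraries.

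**Figure D5:**
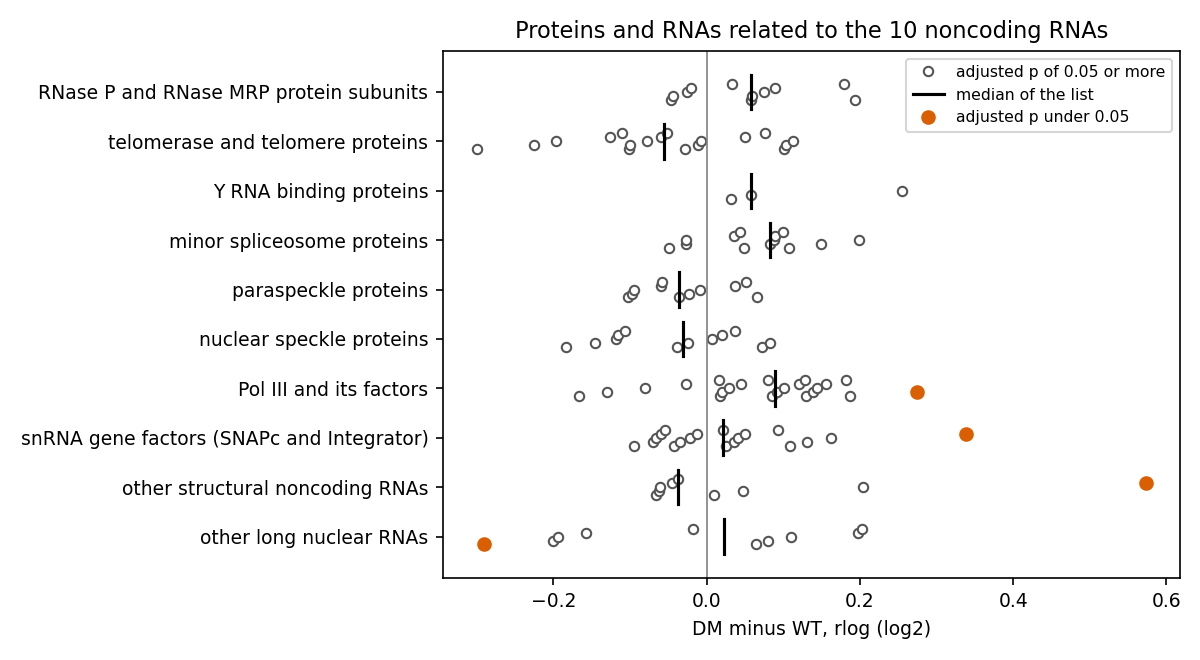
Difference DM minus WT in rlog units (log2, horizontal axis) for each tested gene of 10 lists related to these RNAs, with open circles for genes not past the threshold, filled circles for those with a limma adjusted p under 0.05, and a bar at the median of the list. The 4 filled circles are Polr3d, Snapc5 and Vaultrc5 on the right and Meg3 on the left.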

How the data were processed

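Total RNA from 6 libraries (3 WT, 3 DM, all labelled batch 1) was analysed from 1 table of rlog values on the log2 scale, which the authors deposited. Cutadapt 2.6, STAR 2.7.3, DESeq2 1.30.0 and mm10 are named in the submitters' processing notes. The counting tool, the use of strand and the annotation are not given in the sources used here.

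The 142699 lines were merged into 55487 gene entries, since repeats held identical values. Versioned identifiers of 54349 entries (97.9%) matched GENCODE M21, which gave positions, biotypes and exon lengths. limma 3.58.1 in R 4.3.3 (lmFit, eBayes with a mean-variance trend, prior degrees of freedom 5.82) compared DM with WT without covariates over 18766 genes whose mean reached 3, with Benjamini-Hochberg adjustment and a threshold of 0.05. The test was tested on simulated data. Annotated copies were sought with BLAST 2.17.0 (at least 80% of the length), Y RNAs aligned with Biopython 1.88, and plots drawn with matplotlib 3.10.9. Levels per kilobase are the rlog mean minus log2 of the exon length.

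The members, lists and alternatives were chosen with earlier results of these data known. All members were described, with called genes of each list (at most 4), defining partner proteins, and genes that overlap or neighbour a member. The depth in reads is unknown, so no counting intervals were given. Not every neighbouring gene is reported here.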

Additional observations from a re-analysis of the deposited data

How the results depend on the processing

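The alternatives were other filters on the mean, no mean-variance trend, a robust variance prior, quantile normalization, centring on the median of all or of protein-coding genes, leaving out ribosomal RNA entries, a replicate block, and leaving out each library. The number of genes changed was 2611 and ran from 1119 (without DM replicate 2) to 3475 (without WT replicate 2) with 1 library left out, with 1185 without WT replicate 1 and 1537 without DM replicate 3. Members changed numbered 0, and 1 (Neat1) among genes with a mean of at least 5, with the replicate block, and in 2 of 6 fits without 1 library (range 0 to 1). With the replicate block 3742 genes were called, and the adjusted p was 0.0465 for Neat1 and 0.0082 for Dkc1. Deviations of libraries with the same number correlated at 0.49, 0.12 and 0.04. WT replicates 1 and 2 correlated best with the DM library of their own number, and WT replicate 3 with DM replicate 2 (0.12). With 3 libraries per group, whose deviations sum to 0, these correlations cannot decide on pairing. The numbers were not taken as pairs because the labels do not call them so.

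Signs of differences near 0 were not stable. After quantile normalization Rny1 was 0.037, Rnu11 -0.032, Malat1 -0.20, Rnpc3 -0.015 and Ssb -0.094. After centring on the median Rnu11 was -0.032, CT010467.1 -0.020 and Ssb -0.00042, and after centring on protein-coding genes Rnu11 was -0.057, CT010467.1 -0.045, Rnpc3 -0.022 and Ssb -0.025. With 1 library left out, Rnu11 ran from -0.059 to 0.067, Malat1 from -0.056 to 0.314, CT010467.1 from -0.022 to 0.047, Nono from -0.075 to 0.012 and Rnpc3 from -0.011 to 0.073. None of these values passed the threshold, and the cause was not tested. Rnu12 and Neat1 kept their direction in all 15 alternatives. Depth is unknown, and shrinkage limits what can be seen below a mean of 3.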
